A study of Rattus norvegicus with 10 samples.

Results

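The genes of the mitogen-activated protein kinase (MAPK) cascade and of the dual-specificity phosphatases (Dusp) were examined in rat liver 24 h after total-body irradiation (TBI). A gene belonged to this set if its symbol began with Mapk, Map2k, Map3k, Map4k or Dusp. The rule itself used no measured value, but it was set with earlier results of these data known. The rule took 78 probes of 59 genes, out of 40945 probes and 13426 named genes with a value on every array. The set held 10 MAP kinases, 7 MAP kinase kinases (Map2k), 11 kinases of the Map3k series, 3 of the Map4k series, 20 Dusp genes, 3 kinases that MAP kinases activate (Mapkapk2, Mapkapk3 and Mapkapk5) and 5 scaffold or binding proteins. Of the 59 genes, 44 were well above background on every array, 51 on all arrays of at least 1 group, and Dusp21, Dusp26 and Mapk15 on none of the 10 arrays. For 16 genes there were several probes, and the probe with the highest mean over all arrays then stood for the gene.

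Livers came from 3 groups of male Wistar rats, whose age the labels do not give. The 3 control rats were neither irradiated nor given the drug. The 3 TBI rats received 6.5 Gy of gamma rays by the labels of the arrays, while the text of the study gives a slightly lower dose. The 4 MASM + TBI rats were given MASM, a derivative of the plant alkaloid matrine, by mouth at 30 mg/kg a day for 3 days and were then irradiated with the same dose. A group given MASM without irradiation was not analysed here. Each rat had 1 Cy3-labelled array, and the small number of rats sets the precision. Values are log2 signals after quantile normalization, and differences are between group means of log2 signals. Differences were tested with limma, with Benjamini-Hochberg adjustment over the 40945 probes. A gene was called if it changed by 1.5-fold or more and its adjusted p was under 0.05, and the unadjusted threshold, which the study used, takes p under 0.05 and the same fold change. Only mRNA was measured, and the phosphorylation that switches these kinases on was not.

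In this cascade a Map3k phosphorylates a Map2k, which in turn phosphorylates a MAP kinase, and Map4k kinases act above the Map3k tier. Growth factors mainly signal through the ERK kinases, among them Mapk3 (ERK1), while stress and cytokines act through the JNK kinases (Mapk8, Mapk9, Mapk10) and the p38 kinases (Mapk11 to Mapk14). Dual-specificity phosphatases remove the activating phosphates from MAP kinases, and the transcription of several of them is itself induced by MAPK signalling, which makes them feedback inhibitors. The study read its own list of genes as a modulation of the ERK, JNK and p38 pathways, and the values below cover the genes of these tiers that had a named probe.

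The labels were checked on 8 known targets of p53, the transcription factor activated by DNA damage. All 8 were called higher in TBI rats and in MASM + TBI rats than in control rats. The cell cycle inhibitor Cdkn1a was higher by 5.36 and 4.80 on the log2 scale. Hepatocyte markers gave a log2 summed signal of 20.3 to 20.5 in every group, and albumin, the main liver secretory protein, was well above background on every array. The sum rests on the brightest probes, which quantile normalization sets to nearly the same values on every array, so it was largely fixed. The share of spots well above background was 57.2% to 59.9% on control arrays, 64.1% to 70.1% on TBI arrays and 56.2% to 60.2% on MASM + TBI arrays. All TBI arrays, and no others, were on slide 2, so TBI and slide cannot be told apart. MASM + TBI rat 3 shared slide 1 with the control rats, and the other MASM + TBI rats were on slide 3.

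Between TBI and control rats, 4 of the 59 genes were called, against 5.18% of all named genes. Map4k4 and Dusp13a were higher in TBI rats, against 2.44% of named genes called higher, and Map2k6 and Dusp13b were lower, against 2.74%. At the unadjusted threshold 7 genes passed, against 13.1% of named genes (7.54% higher and 5.59% lower). The 3 added genes were Mapkapk2 and Dusp29, with higher means in TBI rats, and Mapkapk3, with a lower mean. The median difference over the 59 genes was 0.02, beside -0.01 over all named genes. The groups did not overlap for 17 of the 59 genes (28.8%), beside 30.6% of named genes. The shares among the 59 genes were thus near those of all named genes. Scaling to the 75th percentile gave 8 called genes, and the share of all named genes under that scaling was not computed. Of the 4 called genes Dusp13a was not well above background on any control array, so its place rests on control values below background.

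MASM + TBI rats differed from control rats in 1 called gene, Mapkapk3, which was lower, against 2.90% of all named genes (0.931% higher and 1.97% lower). At the unadjusted threshold 3 genes passed, against 9.18% (3.50% higher and 5.68% lower), namely Dusp4 with a higher mean and Mapkapk3 and Map2k6 with lower means. No gene was called by limma between MASM + TBI and TBI rats, against 0.864% of named genes (0.261% higher and 0.603% lower). In that comparison 4 genes passed the unadjusted threshold, against 7.82% (1.73% higher and 6.09% lower), namely Map2k6 with a higher mean and Dusp13a, Mapkapk2 and Mapkapk3 with lower means in MASM + TBI rats. Of these, Dusp13a and Mapkapk3 were well above background on no MASM + TBI array, so they passed the 1.5-fold limit only through values below background. The methods' t-test gave 0 genes after adjustment and 4 without it, scaling to the 75th percentile 3 and 8, and leaving out TBI rat 1 also 3 and 8. With slide as a random block 2 genes were called, but no slide held arrays of both groups, so this block cannot separate slide from group. The correlation within slides was negative (-0.133). The share of all named genes under these alternatives was not computed. Groups did not overlap for 16 genes (27.1%) between MASM + TBI and control rats, beside 22.3% of named genes, and for 11 genes (18.6%) between MASM + TBI and TBI rats, beside 17.2%. The comparisons share the TBI or the control arrays, so their values are given side by side and are not independent.

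Of the 10 MAP kinases none was called in any comparison, beside 5.18%, 2.90% and 0.864% of all named genes in the order above. None passed the unadjusted threshold, beside 13.1%, 9.18% and 7.82%. For the ERK1 gene Mapk3 the control rats gave 6.12, 6.15 and 6.55, the TBI rats 5.94, 5.58 and 5.72, and the MASM + TBI rats 5.77, 5.87, 6.10 and 5.83. All control rats were above all irradiated rats, and the difference from control was -0.53 for TBI (adjusted p = 0.081) and -0.38 for MASM + TBI (adjusted p = 0.21). From TBI rats, MASM + TBI rats differed by 0.15, with an interval of -0.18 to 0.47.

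The JNK and p38 kinases named here showed small differences. For Mapk9 (JNK2) the 10 rats lay between 11.30 and 11.90, both in the TBI group, and the difference between TBI and control was 0.02, with an interval of -0.31 to 0.35. Its other probes gave 0.10 and -0.01. For Mapk14 (p38 alpha) the rats lay between 10.45 and 10.78, with a difference of 0.13 (interval -0.10 to 0.35) for TBI against control and 0.00 (interval -0.21 to 0.21) for MASM + TBI against TBI. The second probe of Mapk14 had the opposite sign for TBI against control, -0.30, with an interval of -0.85 to 0.24. Mapk11 (p38 beta) was higher in each TBI rat than in each control rat, by 0.45 (adjusted p = 0.18). An interval that holds 0 does not show that the levels were equal.

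**Figure D1:**
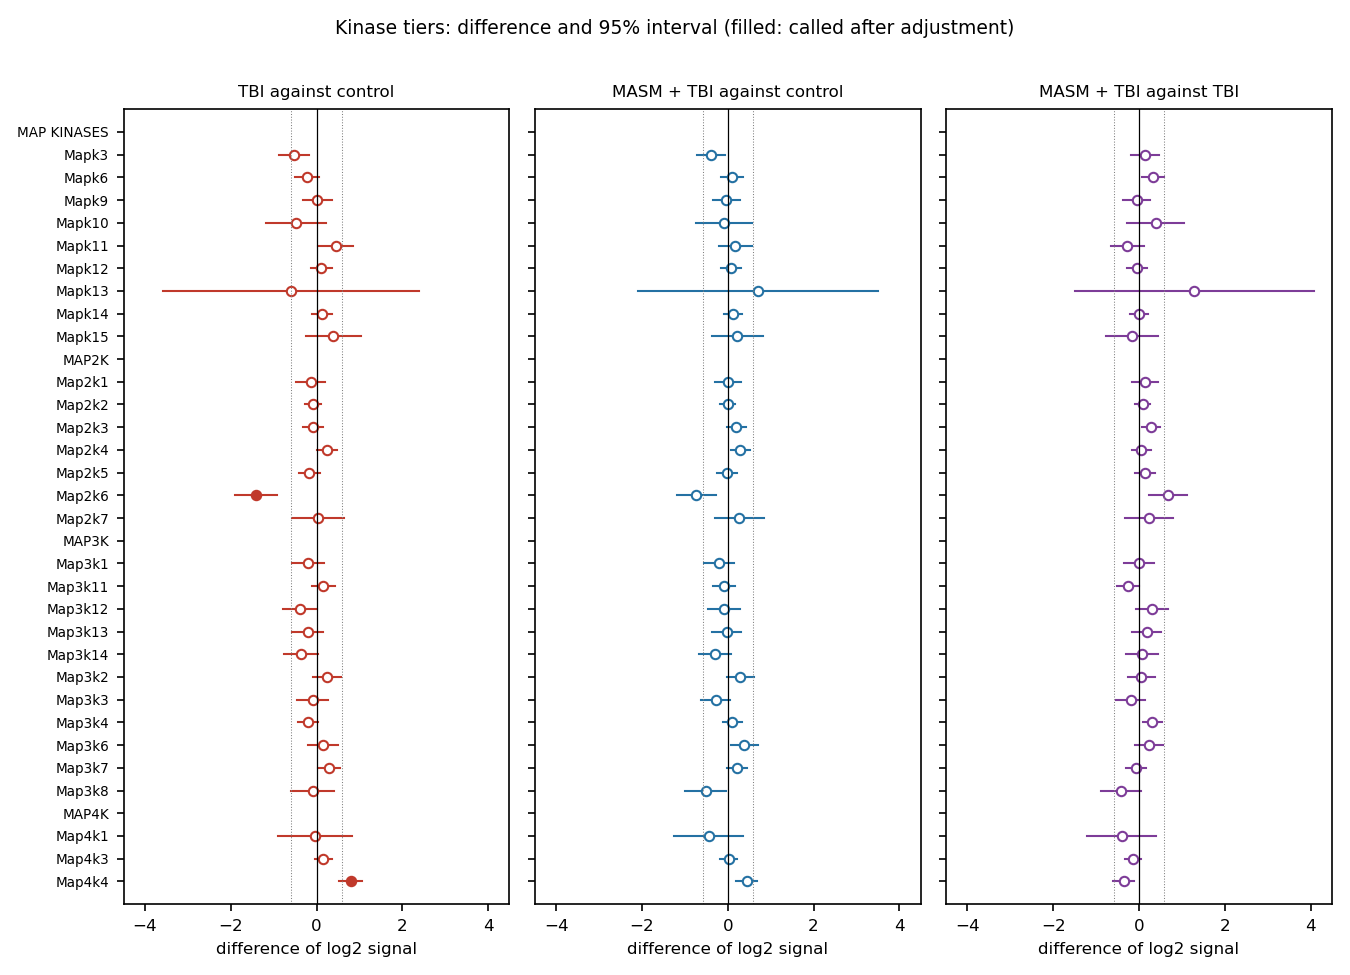
Differences of log2 signal (horizontal axis) for the kinases reported singly from the MAP kinase, Map2k, Map3k and Map4k tiers in the 3 comparisons, each with its 95% interval from limma. Filled points were called after adjustment, and dotted lines mark a 1.5-fold change. Only Map2k6 and Map4k4, in TBI against control, are filled.

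Among the 7 Map2k genes, Map2k6 was the one called, in TBI against control, beside 5.18% of all named genes. This kinase phosphorylates the p38 kinases, as Map2k3 does. Its log2 signal was 7.70, 7.36 and 7.32 in the control rats, 6.41, 5.74 and 5.99 in the TBI rats, and 6.37, 6.66, 6.91 and 6.95 in the MASM + TBI rats. Every control rat was above every irradiated rat, while 1 MASM + TBI rat lay below the highest TBI rat. Map2k6 was 2.67-fold lower in TBI than in control rats (difference -1.42 ± 0.21, SE; adjusted p = 0.0098). MASM + TBI rats differed from control rats by -0.74 (adjusted p = 0.095) and from TBI rats by 0.68 (adjusted p = 0.14), and neither was called. Within slide 1, MASM + TBI rat 3 was 0.55 below the mean of the control rats.

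The promoter of Map2k6 is shown because it belongs to the kinase with the largest called difference in the cascade tiers, beside the promoters of other members whose values are described below. Each sequence holds the 250 bases before the annotated start, taken from RefSeq on the build GRCr8 and written 5′ to 3′ along the gene. Capitals mark the palindromes CACGTG, the E-box, and TGACGTCA, the cAMP response element. Map2k6 lies on the plus strand at chr10:95872497-95872746, Dusp13b on the plus strand at chr15:2616511-2616760, Mapkapk3 on the minus strand at chr8:116842229-116842478 and Dusp1 on the plus strand at chr10:17184603-17184852.
Map2k6: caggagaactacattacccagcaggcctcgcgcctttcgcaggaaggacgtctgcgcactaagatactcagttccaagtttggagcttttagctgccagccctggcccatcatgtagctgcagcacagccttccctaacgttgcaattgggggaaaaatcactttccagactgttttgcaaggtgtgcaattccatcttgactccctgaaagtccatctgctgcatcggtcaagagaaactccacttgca
Dusp13b: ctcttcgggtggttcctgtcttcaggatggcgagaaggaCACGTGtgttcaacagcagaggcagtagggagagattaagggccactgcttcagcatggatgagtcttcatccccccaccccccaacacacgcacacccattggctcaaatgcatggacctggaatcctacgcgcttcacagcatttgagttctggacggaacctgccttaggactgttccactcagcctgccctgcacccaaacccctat
Mapkapk3: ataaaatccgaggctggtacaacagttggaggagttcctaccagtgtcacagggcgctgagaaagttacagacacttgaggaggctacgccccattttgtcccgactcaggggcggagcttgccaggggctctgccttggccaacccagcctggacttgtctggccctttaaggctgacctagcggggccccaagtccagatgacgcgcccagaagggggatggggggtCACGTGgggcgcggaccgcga
Dusp1: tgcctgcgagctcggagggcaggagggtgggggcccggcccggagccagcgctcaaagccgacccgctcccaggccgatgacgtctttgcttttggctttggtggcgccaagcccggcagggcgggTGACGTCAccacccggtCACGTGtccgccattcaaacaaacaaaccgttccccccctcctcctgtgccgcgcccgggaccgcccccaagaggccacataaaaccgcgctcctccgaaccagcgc
The Map2k6 window held neither motif, and the letters TGANTCA, the binding sequence of the Fos and Jun proteins, were in none of the 4 windows. The motifs were searched on both strands and were chosen after the values had been seen. Of 49 windows of member genes, 6 held CACGTG (12.2%), those of Dusp1, Dusp2, Dusp13b, Dusp29, Mapk12 and Mapkapk3, beside 5.59% of all 33469 windows. The cAMP response element was in 4 (8.16%), those of Dusp1, Dusp11, Map3k13 and Mapk10, beside 1.59%, and TGANTCA was in 3 (6.12%), beside 6.34%. A match in these windows is a description and not a binding site.

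The kinases upstream of ERK showed no called difference. Map2k1 (MEK1) lay between 9.24 and 9.77 and Map2k2 (MEK2) between 12.34 and 12.65 over all rats. Against control, TBI differed by -0.14 for Map2k1 (interval -0.47 to 0.19) and by -0.08 for Map2k2 (interval -0.27 to 0.11). Map2k4, which phosphorylates JNK, gave 7.78, 7.78 and 7.76 in control rats, 8.02, 7.90 and 8.12 in TBI rats, and 8.18, 7.86, 8.12 and 8.12 in MASM + TBI rats. All irradiated rats were above the control rats, by 0.24 (adjusted p = 0.20) and 0.29 (adjusted p = 0.15). The second probe of Map2k4 gave -0.02 and 0.13, with intervals across 0.

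Map2k7, the other kinase above JNK, differed from control by 0.04 in TBI and 0.27 in MASM + TBI rats, with intervals across 0. Map2k5, which phosphorylates ERK5, differed by -0.17 and -0.02. Map2k3 was lower in each TBI rat than in each MASM + TBI rat, with 11.50, 11.59 and 11.47 against 11.78, 11.81, 11.73 and 11.88, and this difference of 0.28 had an adjusted p of 0.19.

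Of the 11 Map3k genes none was called in any comparison by its brightest probe, beside 5.18%, 2.90% and 0.864% of all named genes. None passed the unadjusted threshold, beside 13.1%, 9.18% and 7.82%. The differences ran from -0.39 to 0.29 for TBI against control, from -0.51 to 0.38 for MASM + TBI against control, and from -0.42 to 0.31 for MASM + TBI against TBI. Map3k4, which Gadd45 proteins activate, had the smallest p of the tier by brightest probes between the irradiated groups. It gave 5.95, 5.84 and 6.10 in the TBI rats and 6.25, 6.20, 6.41 and 6.25 in the MASM + TBI rats, and the control rats gave 6.09, 6.29 and 6.12. The MASM + TBI rats lay above the TBI rats by 0.31 (adjusted p = 0.15).

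The probes of Map3k1, a kinase above JNK, disagreed. By the brighter probe MASM + TBI differed from TBI by 0.00, with an interval of -0.35 to 0.35. Its dimmer probe gave 5.78, 5.73 and 5.66 in the TBI rats, 5.15, 5.23, 5.24 and 5.32 in the MASM + TBI rats, and 5.54, 5.43 and 5.58 in the control rats. All TBI rats were above and all MASM + TBI rats below the control rats on this probe. The difference of -0.49 between the irradiated groups had an adjusted p of 0.019 and was under 1.5-fold.

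Map3k8, a kinase above ERK in blood and immune cells, gave 7.57, 7.98 and 7.81 in control rats, 7.16, 8.03 and 7.91 in TBI rats, and 7.13, 7.39, 7.20 and 7.37 in MASM + TBI rats. The MASM + TBI rats lay below every control rat, by 0.51 on average (adjusted p = 0.25), and overlapped with the TBI rats. In such bulk tissue fewer cells of a type and less RNA per cell cannot be told apart. Of 10 T lymphocyte markers 4 were called lower in TBI rats (among them Cd3e, Cd3g and Cd2) and 3 in MASM + TBI rats (among them Cd3e and Cd3g), beside 2.74% and 1.97% of all named genes. The mean was higher in TBI than in control rats for 3 of the 10, Cd4, Lck and Cd5, none of them called. The log2 summed signal of the 10 markers was 9.58 to 10.13 in control rats, 8.66 to 9.36 in TBI rats and 8.28 to 9.05 in MASM + TBI rats, and Cd3e and Cd5 were not well above background on any array. Of 8 Kupffer cell markers none was called by limma in any comparison, and 5 passed the unadjusted threshold as lower in MASM + TBI than in TBI rats, beside 6.09% of all named genes. Their log2 summed signal was 16.5 to 17.1 in control, 16.5 to 17.4 in TBI and 16.2 to 16.5 in MASM + TBI rats. The part of these cells in the levels of Map3k8, Map4k1 and Dusp2 was not tested.

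Map4k4, a kinase that acts above JNK, was the called member of the Map4k series, in TBI against control, beside 5.18% of all named genes. It gave 9.04, 8.92 and 8.69 in the control rats, 9.60, 9.66 and 9.78 in the TBI rats, and 9.29, 9.47, 9.19 and 9.35 in the MASM + TBI rats. The 3 groups did not overlap, with MASM + TBI between the others. Map4k4 was 1.73-fold higher in TBI than in control rats (difference 0.79 ± 0.12, SE; adjusted p = 0.0086). The MASM + TBI rats differed by 0.44 from control (adjusted p = 0.072) and by -0.35 from TBI rats (adjusted p = 0.15), both under 1.5-fold. Within slide 1 the difference of MASM + TBI rat 3 from the control mean was 0.30. The blood-cell kinase Map4k1 gave 5.61, 6.32 and 6.09, then 5.20, 6.43 and 6.26, and then 6.03, 5.55, 4.96 and 5.70 in the same order of groups, which overlapped. By its brighter probe Map4k3 differed by at most 0.16 in size in any comparison.

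A pair of kinases in the study's own list, Map3k5 (ASK1) and Map3k10, were measured only by probes that carry other identifiers, so they fell outside the rule. The study picked them on these rats, and their values are a description and no independent evidence. For Map3k5, which oxidative stress activates, the brighter probe gave 5.94, 5.82 and 5.58 in control, 5.02, 5.11 and 5.12 in TBI, and 5.60, 5.63, 5.50 and 5.52 in MASM + TBI rats. All TBI rats were lower than all other rats, and the difference from control was -0.70 on this probe and -1.24 on the other. Map3k10 gave 3.04, 3.61 and 3.62 in control, 4.75, 4.86 and 4.52 in TBI, and 3.71, 3.90, 3.76 and 4.52 in MASM + TBI rats on its brighter probe. It was well above background on 0 of the 3 control arrays, on 3 of the 3 TBI arrays and on 1 of the 4 MASM + TBI arrays, so TBI was at least 1.78-fold higher than control. The adjusted p of this probe was 0.023, and it was 0.061 without control rat 1, 0.053 without control rat 3, 0.053 without TBI rat 1 and 0.063 without TBI rat 2.

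Of the 3 kinases activated by MAP kinases, Mapkapk3 was called in MASM + TBI against control, beside 2.90% of all named genes. The others were called in no comparison. Mapkapk2, which p38 activates and which stabilises the mRNA of inflammatory cytokines, gave 11.68, 11.87 and 11.92 in control rats, 12.08, 12.67 and 12.87 in TBI rats, and 11.60, 12.05, 11.98 and 11.69 in MASM + TBI rats. The TBI rats were above all other rats. The difference was 0.71 (adjusted p = 0.090) against control and 0.71 in size against MASM + TBI rats (adjusted p = 0.13), so neither was called. TBI rat 1 was the lowest of its group, and without it both comparisons were called, at 0.94 (adjusted p = 0.024) and -0.94 (adjusted p = 0.027).

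Mapkapk3, a close relative of Mapkapk2, gave 4.62, 5.14 and 4.78 in control rats, 3.86, 4.12 and 4.18 in TBI rats, and 3.33, 3.37, 2.10 and 3.36 in MASM + TBI rats. All control rats were above all irradiated rats, and 0 of the 4 MASM + TBI arrays were well above background. TBI rats were therefore at least 1.16-fold higher than MASM + TBI rats (adjusted p = 0.16), a bound under the 1.5-fold limit. MASM + TBI rats were therefore at least 2.01-fold lower than control rats (adjusted p = 0.024), with a fitted difference of -1.81 that rests on values below background. MASM + TBI rat 3, on slide 1 with the control rats, was one of these arrays. The call was lost without control rat 2 (adjusted p = 0.092), without control rat 3 (adjusted p = 0.083) or without MASM + TBI rat 1 (adjusted p = 0.052). Against control, TBI differed by -0.80 (adjusted p = 0.20), and without MASM + TBI rat 3 this adjusted p was 0.027. The lowest signal well above background was 3.7 to 4.0 on control arrays, 2.5 to 3.2 on TBI arrays and 3.7 to 4.1 on MASM + TBI arrays, so the TBI arrays measured dimmer spots. Mapkapk5 gave 8.56 to 8.61 in control rats and 8.74 to 9.16 in all irradiated rats, with differences of 0.38 (adjusted p = 0.085) and 0.32 (adjusted p = 0.15) from control.

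**Figure D2:**
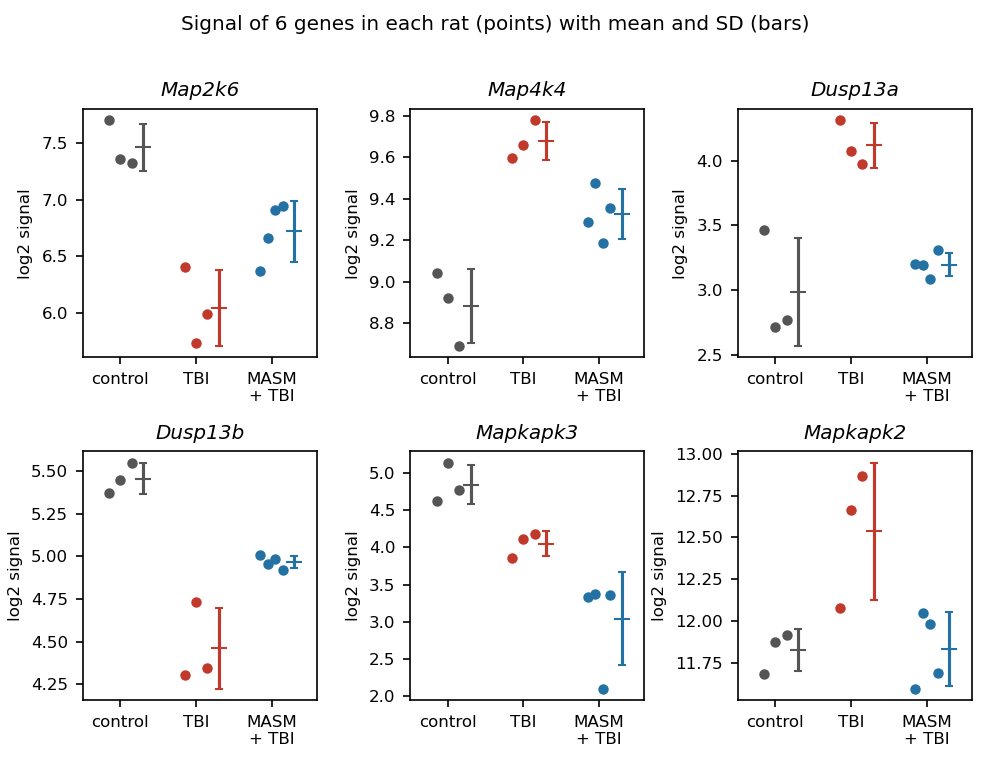
Log2 signal (vertical axes, each with its own range) of Map2k6, Map4k4, Dusp13a, Dusp13b, Mapkapk3 and Mapkapk2 in each rat (points), with the mean and SD of each group beside them. TBI rats sit apart from control rats in all 6 panels, and MASM + TBI rats lie between them for Map4k4 and Dusp13b.

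The 5 scaffold and binding proteins gave no gene past either threshold, beside the shares of all named genes given above. They include Mapk8ip1 and Mapk8ip3, scaffolds of the JNK module. Differences from control ran from -0.60 to 0.49 in TBI rats and from -0.53 to 0.38 in MASM + TBI rats.

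Of the 20 Dusp genes 2 were called between TBI and control rats, beside 5.18% of all named genes. Dusp13a was higher and Dusp13b lower, and no Dusp gene was called by limma in the other comparisons (2.90% and 0.864% of named genes). Both belong to the atypical Dusp genes, which lack the MAP kinase binding domain. Dusp13a and Dusp13b encode phosphatases known from skeletal muscle and testis, and with Dusp29 they lie next to each other on chromosome 15 in the RefSeq gene table. Dusp13b gave 5.37, 5.45 and 5.55 in control rats, 4.30, 4.73 and 4.34 in TBI rats, and 5.01, 4.96, 4.98 and 4.92 in MASM + TBI rats. The 3 groups did not overlap, and MASM + TBI rats lay between the others. Dusp13b was 2.00-fold lower in TBI than in control rats (difference -0.998 ± 0.12, SE; adjusted p = 0.0038), with the smallest p of all members. MASM + TBI differed by -0.49 from control (adjusted p = 0.056) and by 0.51 from TBI rats (adjusted p = 0.070), both under 1.5-fold, and by -0.47 from control within slide 1. Without TBI rat 2 the difference between the irradiated groups was 0.64, with an adjusted p of 0.015. With a normexp background correction Dusp13b differed by -0.28 between TBI and control, which is under 1.5-fold.

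Dusp13a gave 3.47, 2.72 and 2.77 in control rats, 4.31, 4.08 and 3.97 in TBI rats, and 3.20, 3.19, 3.09 and 3.31 in MASM + TBI rats. All TBI rats were above all other rats, and only the 3 TBI arrays were well above background. TBI was at least 1.18-fold higher than control (adjusted p = 0.016), and the fitted difference of 1.14, by which the gene passed the 1.5-fold limit, rests on control values below background. MASM + TBI minus TBI gave a fitted difference of -0.92 (adjusted p = 0.050, not called), with TBI at least 1.21-fold higher. The first call was lost without control rat 2 (adjusted p = 0.051) or control rat 3 (adjusted p = 0.061), and without control rat 1 the difference from MASM + TBI was called (adjusted p = 0.013). Over all alternatives tried, the call against control was lost in 5 and kept in 15. The difference between the irradiated groups gained a call in 6 and not in 14. The annotated span of Dusp13a overlaps that of Samd8, so the probe may not belong to 1 gene. The brightest probe of Samd8, which was looked up after the values were seen, differed by 0.15 between TBI and control (adjusted p = 0.54).

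Dusp29 gave 5.10, 5.38 and 3.93 in control rats, 6.33, 6.47 and 5.64 in TBI rats, and 4.60, 5.68, 5.26 and 5.59 in MASM + TBI rats. The TBI rats were above the control rats by 1.34 (adjusted p = 0.11) and overlapped with the MASM + TBI rats. Dusp3, which acts on ERK and JNK, gave 11.81, 11.67 and 11.78 in control rats, 12.13, 12.36 and 12.34 in TBI rats, and 12.06, 12.21, 12.13 and 12.23 in MASM + TBI rats. All irradiated rats were above all control rats. The differences of 0.53 (adjusted p = 0.017) and 0.41 (adjusted p = 0.044) were under 1.5-fold, so they were not called. Its other probes gave 0.39 and 0.30 for TBI and 0.31 and 0.41 for MASM + TBI against control. Within slide 1 the difference of MASM + TBI rat 3 from control was 0.38. With the slide as a fixed block the adjusted p for MASM + TBI against control was 0.31.

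**Figure D3:**
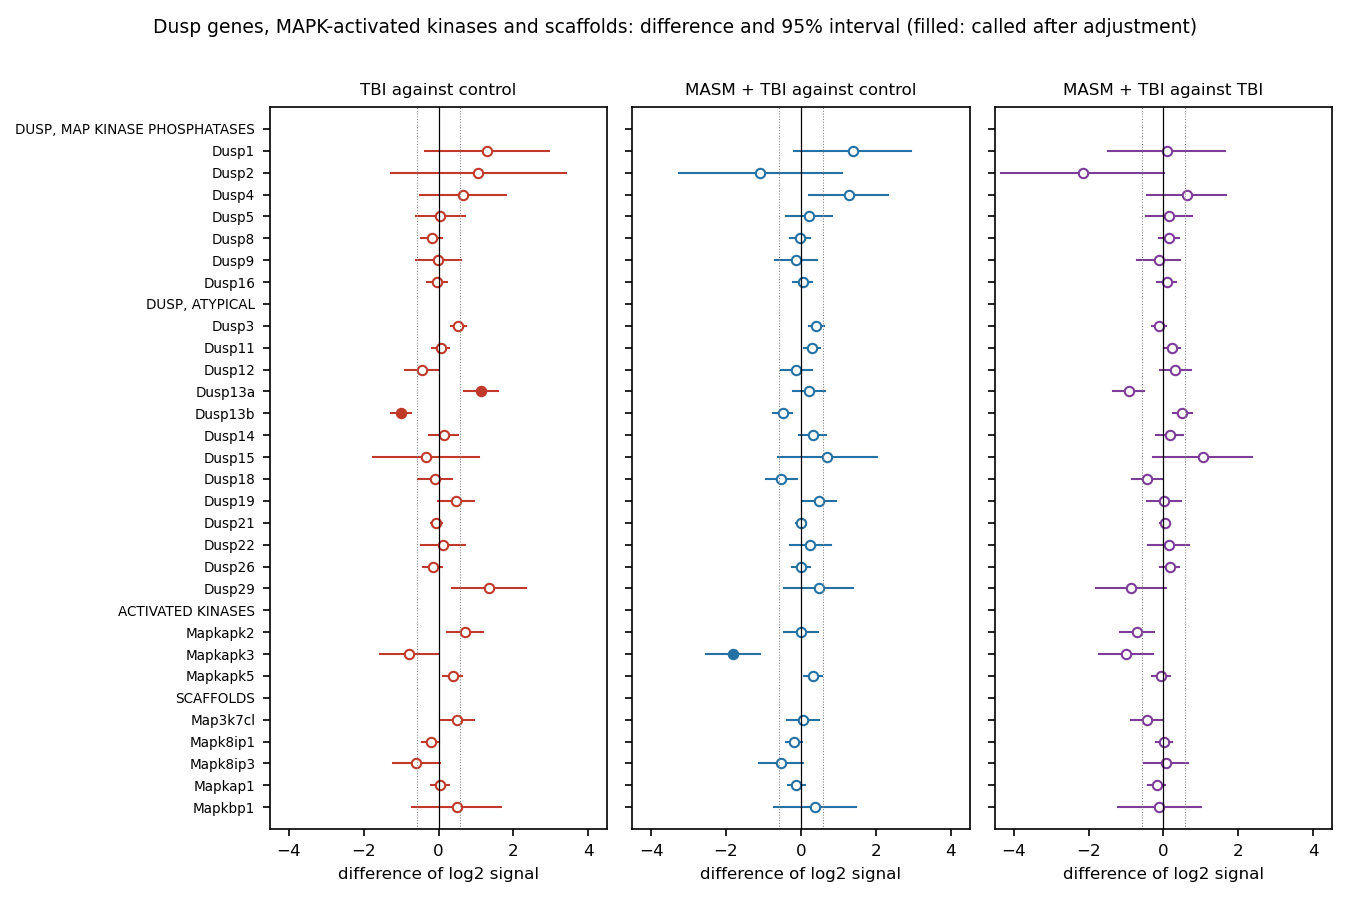
Differences of log2 signal (horizontal axis) for the 20 Dusp genes, the 3 kinases activated by MAP kinases and the 5 scaffold or binding proteins in the 3 comparisons, each with its 95% interval from limma. Filled points were called after adjustment, and dotted lines mark a 1.5-fold change. Dusp1, Dusp2 and Dusp4 have wide intervals, while Dusp3, Dusp13a and Dusp13b have narrow ones.

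Of the 7 Dusp genes that encode MAP kinase phosphatases none was called in any comparison by limma, beside 5.18%, 2.90% and 0.864% of all named genes. Only Dusp4, for MASM + TBI against control, passed the unadjusted threshold, beside 9.18% of named genes in that comparison. The immediate-early gene Dusp1 gave 6.52, 9.42 and 8.32 in control rats, 9.75, 8.91 and 9.48 in TBI rats, and 10.25, 9.72, 9.57 and 8.33 in MASM + TBI rats. The control rats spread over nearly the whole range, and the groups overlapped. Its difference from control was 1.30 (interval -0.37 to 2.96) in TBI and 1.38 (interval -0.17 to 2.94) in MASM + TBI rats, so these rats could not show a change of this size. Without control rat 1 the differences were 0.51 and 0.60. Its promoter, given above, held both the cAMP response element and the E-box.

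Dusp2, a phosphatase of activated blood cells, varied widely among the TBI rats. It gave 2.74, 4.05 and 2.34 in control rats, 1.56, 5.10 and 5.67 in TBI rats, and 1.63, 3.05, 1.65 and 1.51 in MASM + TBI rats. It was well above background on 1 of the 3 control arrays, 2 of the 3 TBI arrays and 0 of the 4 MASM + TBI arrays. TBI rat 1, not well above background, lay within the values of the MASM + TBI rats, and Dusp2 passed neither threshold in any comparison. Most of its values lie below background, so no fold is given.

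Dusp4 gave 4.42, 4.95 and 2.69 in control rats, 4.79, 4.89 and 4.33 in TBI rats, and 5.17, 5.56, 5.23 and 5.20 in MASM + TBI rats. The MASM + TBI rats were above all other rats, and the difference from control was 1.27 (adjusted p = 0.21). Within slide 1 it was 1.21. Control rat 3 was far below the other control rats and not well above background, and without it the difference was 0.60 (adjusted p = 0.28).

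For the remaining MAP kinase phosphatases described here every interval held 0. Dusp5, a nuclear phosphatase of ERK, gave 9.86, 10.99 and 10.10 in control rats and 9.97 to 10.69 in all irradiated rats, and differed from control by 0.05 and 0.21. Dusp8 and Dusp16, which act on JNK and p38, lay between 10.44 and 10.95 and between 8.96 and 9.41 over all rats. Dusp8 differed from control by -0.19 and -0.03, and Dusp16 by -0.04 and 0.05, with intervals across 0. Dusp9, which acts on ERK, differed by -0.01 and -0.13 and was well above background on the 3 TBI arrays alone.

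**Figure D4:**
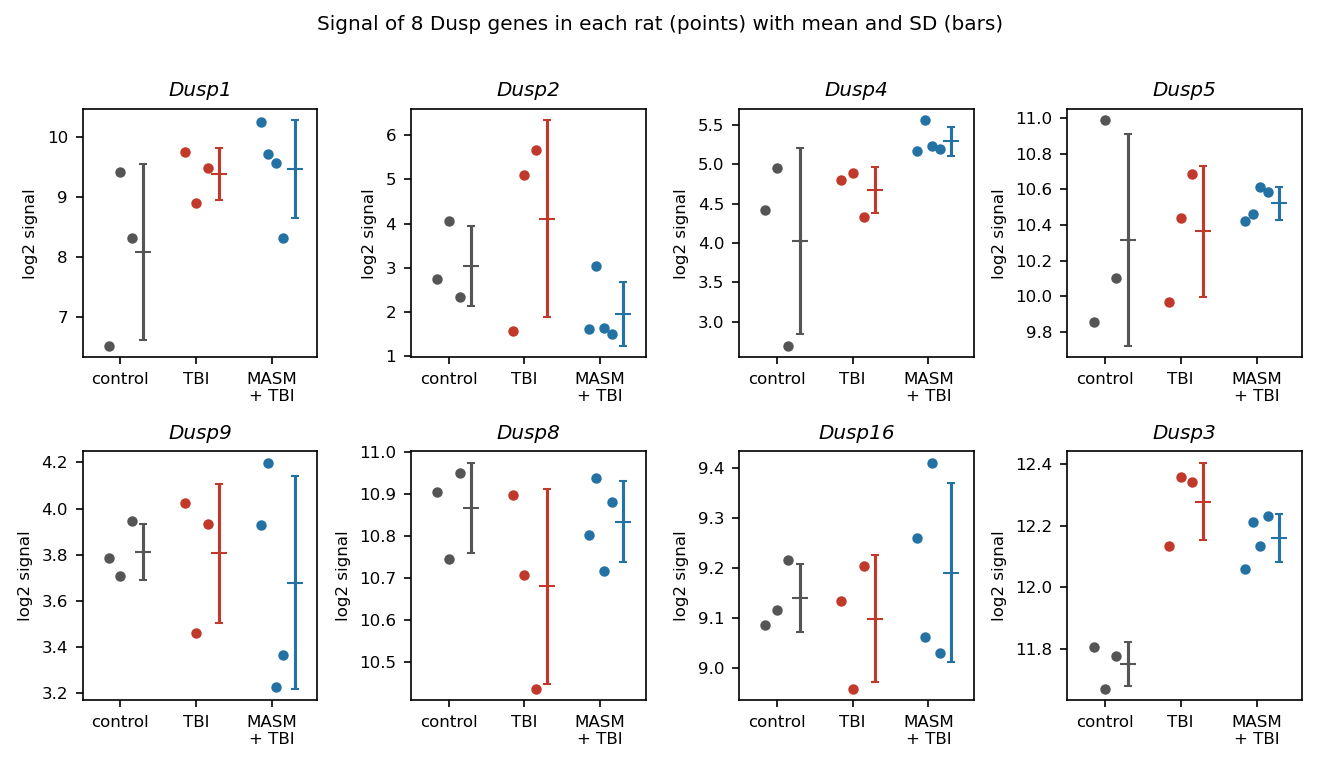
Log2 signal (vertical axes, each with its own range) of 7 MAP kinase phosphatases and of Dusp3 in each rat (points), with the mean and SD of each group beside them. Control rats of Dusp1 run from 6.52 to 9.42, TBI rats of Dusp2 from 1.56 to 5.67, and for Dusp3 all irradiated rats are above all control rats.

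Other genes of the pathway, which carry other names, were counted by list. Of 27 growth factor receptors, ligands, adaptors and Ras genes measured, none was called by limma in any comparison, and 3 passed the unadjusted threshold in TBI against control, beside 13.1% of all named genes. In MASM + TBI against control 1 passed it, beside 9.18%, and in MASM + TBI against TBI 2 passed it, beside 7.82%. Fgf3, a fibroblast growth factor that the study had picked on these rats, was well above background on 0 of the 3 control arrays, 1 of the 3 TBI arrays and 0 of the 4 MASM + TBI arrays, so no fold is given. Of 14 Raf kinases and other upstream kinases and adaptors 1 was called, Taok2, a kinase of the Map3k level that the study had picked too. It was called in TBI against control, beside 5.18% of all named genes, where 2 of the 14 passed the unadjusted threshold (13.1% of named genes), and in MASM + TBI against TBI, beside 0.864%. Taok2 gave 8.08, 8.31 and 8.45 in control rats, 8.85, 9.20 and 8.93 in TBI rats, and 8.27, 8.44, 8.01 and 8.39 in MASM + TBI rats. The TBI rats were above all other rats, by 0.71 against control (adjusted p = 0.034) and 0.72 in size against MASM + TBI (adjusted p = 0.0495). The call against control was lost without any 1 control rat, without TBI rat 2 or 3 or without MASM + TBI rat 1 (adjusted p 0.050 to 0.093). The call against MASM + TBI was kept only without TBI rat 1 (adjusted p 0.059 to 0.14 without any other rat). Prkx, also of the study's list, differed by 0.02 between TBI and control (interval -0.20 to 0.23) and by -0.35 between MASM + TBI and TBI rats (adjusted p = 0.11).

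Of 26 transcription factors and immediate targets 2 were called higher in TBI than in control rats, beside 2.44% of all named genes, and none by limma in the other comparisons. These were Ets2, a target of ERK, at 1.13 (adjusted p = 0.020), and Atf4, a regulator of the response to amino acid shortage and endoplasmic reticulum stress, at 0.59 (adjusted p = 0.048), which the study had picked. Ets2 lost the call without control rat 1 or 3 or TBI rat 2 (adjusted p 0.055 to 0.067), and Atf4 without any 1 control rat, TBI rat 1 or 2, or MASM + TBI rat 1 or 2 (adjusted p 0.071 to 0.13). At the unadjusted threshold 5 were higher in TBI than in control rats, beside 7.54% of named genes, and 1 was higher in MASM + TBI than in control rats, beside 3.50%. From TBI to MASM + TBI rats 1 was lower, beside 6.09%. The median difference of the list from control was 0.48 for TBI and 0.31 for MASM + TBI.

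The counts of this list turned on single rats. Without MASM + TBI rat 4, 4 genes were called in TBI against control and 2 in MASM + TBI against control, where 9 passed the unadjusted threshold and the median was 0.47. Without control rat 1 none was called by limma in either comparison, 3 and 0 passed the unadjusted threshold, and the medians were 0.31 and 0.14. The share of all named genes passing without these rats was not computed, so a change of this list and one over the whole array cannot be told apart. Nr4a1, of the study's list as well, differed by 3.83 between TBI and control (adjusted p = 0.16). Without MASM + TBI rat 4 the adjusted p of this difference was 0.017, and the difference between MASM + TBI and control went from 1.94 to 3.33 (adjusted p = 0.046).

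Of 10 other scaffolds and regulators Flna, an actin-binding scaffold, was called lower in MASM + TBI than in control rats, by 0.73 in size (adjusted p = 0.035), beside 1.97% of all named genes called lower. The call was lost without any 1 of the control or MASM + TBI rats (adjusted p 0.054 to 0.12). Gadd45b, an activator of Map3k4 that the study had picked, differed by 1.54 between TBI and control (adjusted p = 0.082) and by -1.10 between MASM + TBI and TBI rats (adjusted p = 0.22). Without MASM + TBI rat 4 the first difference had an adjusted p of 0.0040, the second was -0.68 (adjusted p = 0.12), and MASM + TBI differed from control by 0.86 (adjusted p = 0.048). Of 6 effector genes Stmn1, a microtubule regulator that MAP kinases phosphorylate, was called lower in both irradiated groups than in control rats, beside 2.74% (TBI) and 1.97% (MASM + TBI) of all named genes. It differed by -1.69 in TBI (adjusted p = 0.0012) and by -1.52 in MASM + TBI rats (adjusted p = 0.0016). Stmn1 is also a gene of dividing cells. None of 18 inhibitors other than Dusp genes was called by limma, beside 5.18%, 2.90% and 0.864% of all named genes in the 3 comparisons. At the unadjusted threshold 1 of them, Ptpn7, a phosphatase of ERK and p38 in lymphocytes, was lower in MASM + TBI rats in both comparisons. Beside it, 5.68% of named genes were lower against control and 6.09% against TBI.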

How the data were processed

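Liver RNA of 3 control, 3 TBI and 4 MASM + TBI rats was measured, 1 Cy3 array per rat. Per the file headers and the submitters' processing notes, the authors' files hold the spot intensity computed by Agilent Feature Extraction 10.7.3.1, background-subtracted and not normalized between arrays. The deposited value table held the same intensities (largest difference 0). Of 45018 spots per array, 1639 control spots and 76 to 112 outlier spots were left out, and 0 were saturated. The log2 intensities were quantile normalized and averaged per probe. RefSeq accessions (20676 probes) gave 16950 probes a symbol through the GRCr8 gene table. No probe named in this way stood for Mapk7, Mapk8, Dusp6 or Dusp10.

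A model with 3 group means was fitted with limma 3.58.1 (R 4.3.3; Python 3.11.15 and matplotlib 3.10.9 for the plots; prior degrees of freedom 1.426) and tested on simulated data. Where no array of a group showed a gene well above background, the fold is a bound, the mean of the brighter group over the mean, per array of the dim group, of the higher of its own signal and the lowest signal well above background. All p-values measure the spread between these rats. The members, the gene lists, the tests and the rule for named genes were chosen with earlier results of these data known. Named genes are those called in any comparison, the 5 with the smallest p in each, the classical kinases and inducible phosphatases whatever their values, and the study's MAPK genes. Some genes under this rule are counted with their lists but not reported singly here. Mapk11, Map3k8, Map4k1, Map4k3, Mapkapk5, Dusp9, Dusp29, Samd8, Ptpn7, Fos, Jun and the motifs were added after their values had been seen. Alternatives tried were normexp (offset 50, on median pixel intensities), 75th percentile scaling, the deposited value table, leaving out dim probes, 2 groups per model, the methods' t-test (run as a Welch test), the replicate number or the slide as a block, a prior that was trended and robust, the mean of all probes of a gene, and each rat left out in turn. Leaving out rats for Dusp1 and for the pathway genes outside the set was chosen after seeing the data.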

Additional observations from a re-analysis of the deposited data

Results flagged for a closer look

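In the group of 4 MASM + TBI rats, 1 rat stood apart from the others for 13 of the 59 genes (22% of them, beside 11.3% of all named genes). The gap to the nearest rat, divided by the range of the group, was then above Dixon's 95% critical value, which chance passes in about 1 in 20 groups. Groups of 3 rats were not examined.

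The rat was above its group in 10 genes. For Mapk13 (p38 delta) rat 1 was at 6.81 on the log2 scale and the others at 1.51 to 1.59, and its array was the only one of the 10 on which this probe was well above background. For Dusp15 rat 4 was at 4.57 and the others at 1.94 to 2.25, and again 1 array was well above background. For Dusp22, which acts on JNK, rat 4 was at 9.64 and the others at 8.61 to 8.70. Dusp2 in rat 2 was at 3.05, against 1.51 to 1.65, and Mapk15 in rat 4 at 2.17, against 1.26 to 1.28, and neither was well above background on any array of this group. Smaller gaps were found for Dusp4 in rat 2 (5.56), Mapk10 in rat 2 (4.23), Dusp12 in rat 3 (5.15), Dusp18 in rat 1 (7.36) and Map3k1 in rat 3 (7.06).

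The rat was below its group for Mapkapk3, where rat 3 was at 2.10 and the others at 3.33 to 3.37. It was below them also for Dusp19 in rat 2 (7.52, against 8.08 to 8.12) and for Map3k13 in rat 4 (10.37, against 10.77 to 10.81). MASM + TBI rat 3 was on slide 1 with the control rats.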

How the results depend on the processing

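The 30 differences of single member or study-named genes with an unadjusted p under 0.05 kept their sign under every alternative run for them. Of their recomputed values, 569 stayed on their side of the threshold, 25 lost the call and 15 gained it. The deposited value table held the same intensities, so its counts and its values among the 569 could not differ. The trended and robust prior kept every count within 1.5 times.

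For TBI against control (4 genes called), scaling to the 75th percentile gave 8, normexp 2 and the methods' t-test 0. Leaving out 1 rat gave 3 (without control rat 2) to 6 (without TBI rat 1). At the unadjusted threshold (7 genes) normexp gave 3, and leaving out 1 rat gave 6 to 10. For MASM + TBI against control (1 gene called), normexp, 2 groups per model, the methods' t-test and the replicate block gave 0, slide as a random block 2, and leaving out 1 rat 0 to 1. At the unadjusted threshold (3 genes) normexp gave 0, slide as a random block 5, and leaving out 1 rat 3 to 6. With slide as a fixed block 1 gene was called and 2 passed the unadjusted threshold. For MASM + TBI against TBI (0 genes called), scaling to the 75th percentile gave 3, leaving out dim probes 1, 2 groups per model 1, slide as a random block 2, the mean of all probes 1, and leaving out 1 rat 0 to 3 (without TBI rat 1). At the unadjusted threshold (4 genes) the 75th percentile gave 8, normexp 1, and leaving out 1 rat 4 to 8 (without TBI rat 1). The share of all named genes passing under each alternative was not computed, and the causes were not tested. All TBI arrays were on a slide of their own, so a random slide block cannot separate slide from TBI. Scaling to the 75th percentile put the median over all probes at -0.07, -0.01 and 0.08 in the 3 comparisons.

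Map2k6 and Map4k4 kept their call under every alternative except the methods' t-test (adjusted p 0.24 for both). Replicate numbers did not pair the rats, since the correlation of the deviations of same-numbered rats ran from -0.125 to 0.169. With the number as a replicate block, 4, 0 and 0 genes were called in the 3 comparisons, and the adjusted p of Mapkapk3 in MASM + TBI against control was 0.084. Genes near background are limited by the array, since a probe without a signal well above background gives only a bound.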

Other observations

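Dusp1 and the early transcription factor genes Fos, Jun and Nr4a1 were lowest in the same rat of the control and MASM + TBI groups, but not of the TBI group. In control rat 1, the lowest of its group for Dusp1 at 6.52, Fos was at 5.20, Jun at 9.90 and Nr4a1 at 7.33 on the log2 scale, each the lowest of its group. In MASM + TBI rat 4, the lowest of its group for Dusp1 at 8.33, Fos was at 6.15, Jun at 10.49 and Nr4a1 at 5.97, while the other MASM + TBI rats were at 9.15 to 11.79, 13.23 to 13.75 and 11.03 to 11.90. In TBI rat 2, the lowest of its group for Dusp1 at 8.91, Fos was at 8.74, Jun at 13.86 and Nr4a1 at 12.60, each the highest of its group. These genes were picked after their values had been seen, and no test was made. Without MASM + TBI rat 4 none of the called members changed its call.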
